A study of Mus musculus with 9 samples.

Results

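The death receptor and caspase genes described here are 8 named genes of the extrinsic and intrinsic death pathways, namely Fas, Fasl, Fadd, Cflar, Casp8, Casp9, Apaf1 and Tnfrsf10b, out of 24594 genes in the deposited table. They were picked by symbol, with earlier results of these data known. All 8 were found, and all 8 passed a filter that kept 11569 genes with at least 1 RPKM (reads on exons, scaled for exon length and library depth) in at least 2 libraries. The data are bulk RNA-seq of OT-II thymocytes, whose transgenic T cell receptor sees an ovalbumin peptide, from mixed bone marrow chimeras analysed 4.7 weeks after reconstitution. Irradiated hosts received marrow of OT-II Nr4a1+/+ Nr4a3+/+ donors (OT-II; a cross of the B6.Cg-Tg(TcraTcrb)425Cbn/J strain to BoyJ), of OT-II Nr4a1-/- Nr4a3-/- donors on C57BL/6 (DKO-labelled) and of non-transgenic wild-type donors. WT hosts, which lack ovalbumin, are BoyJ mice by the labels, while the methods of the study describe WT hosts as F1 progeny of RIP.mOVA and BoyJ crosses. RIPmOVA hosts were crosses of the C57BL/6 RIP-mOVA strain, with the transgene Tg(Ins2-TFRC/OVA)296Wehi, to BoyJ, and express membrane ovalbumin from the rat insulin promoter, also in medullary thymic epithelium, so that OT-II cells meet it there as a self-antigen, and the cells sorted from these hosts are those present at the time, after any loss. The cells sorted were semimature CD4+ CD8- CD69+ Vα2+ Vβ5+ thymocytes, giving n = 2 libraries of OT-II and n = 3 of DKO-labelled cells from WT hosts, and n = 2 of each genotype from RIPmOVA hosts. The libraries came from 5 chimeras, 4 of which gave both genotypes. Genotype went with donor strain and congenic marker in every chimera, so that these cannot be told apart. By the labels, the presence of ovalbumin also went with host strain, so that a host difference cannot be assigned to either alone.

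The death receptor pathway starts when Fas ligand (Fasl) or another ligand of the TNF family binds a receptor with a cytoplasmic death domain, such as Fas or the TRAIL receptor encoded by Tnfrsf10b. The adaptor FADD then brings caspase-8 to the receptor, and cFLIP (Cflar), a relative of caspase-8 without protease activity of its own, limits how far caspase-8 is activated. The mitochondrial pathway instead works through cytochrome c, which assembles APAF1 with caspase-9. Both arms end in the executioner caspases. In the thymus, deletion of self-reactive cells is best known to use the mitochondrial arm, while Fas ligand is a classical transcript of activated T cells.

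Depth, worked out from the spacing of low RPKM values, was 15520000 to 25050000 reads per library, at which 3 reads on a 1 kb gene correspond to 0.12 to 0.193 RPKM. The sorted cells expressed all 8 markers of CD4 single-positive thymocytes, with a summed level of 1697 to 1921 RPKM in the 9 libraries. The 6 double-positive markers summed to 112.6 to 122.2 RPKM in WT hosts and 77.8 to 117.2 RPKM in RIPmOVA hosts, with Rag2 alone under 1 RPKM in all. The 4 erythroid markers summed to at most 20.8 (OT-II) and 25.1 RPKM (DKO-labelled) in WT hosts, and to at most 1.73 RPKM in RIPmOVA hosts. Nr4a1, the first gene the knockout targets, stood at 60.7 and 86.1 RPKM in OT-II against 60.1, 80.2 and 87.7 RPKM in DKO-labelled samples of WT hosts, and at 260 and 229.1 RPKM against 282 and 234.7 RPKM in RIPmOVA hosts. Nr4a3, the other target, was not lower under the knockout label either, at 5.66 and 3.72 RPKM in OT-II against 16.5 and 14.1 RPKM in DKO-labelled samples of RIPmOVA hosts, and at 0.181 to 0.665 RPKM in WT hosts. Sums over all exons do not show which part of a gene was deleted, so that these levels do not check the genotype, and the libraries are called DKO-labelled throughout. The summed RPKM of 1484 sensory receptor genes, which thymocytes do not use, was 476 and 639.3 in DKO-labelled samples of RIPmOVA hosts against 200.9 and 74.3 in OT-II libraries from the same hosts. The WT hosts gave 433.2 and 131.6 for OT-II against 162.7, 446.9 and 114.2 for DKO-labelled libraries.

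Fasl was the member that changed. It was higher in RIPmOVA than in WT hosts, by 3.26-fold in OT-II cells and by 6.43-fold in DKO-labelled cells. Apaf1 was higher in every RIPmOVA library than in every WT-host library, and Fas was lower in every DKO-labelled library than in every OT-II library, both by less than 2-fold in each comparison. Over all genes, 8.39% had no overlap between pooled hosts and 5.62% had none between pooled genotypes. Casp8, Cflar, Fadd and Casp9 kept group means within 1.16-fold of each other. The plot of RPKM by library shows every value.

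**Figure D1:**
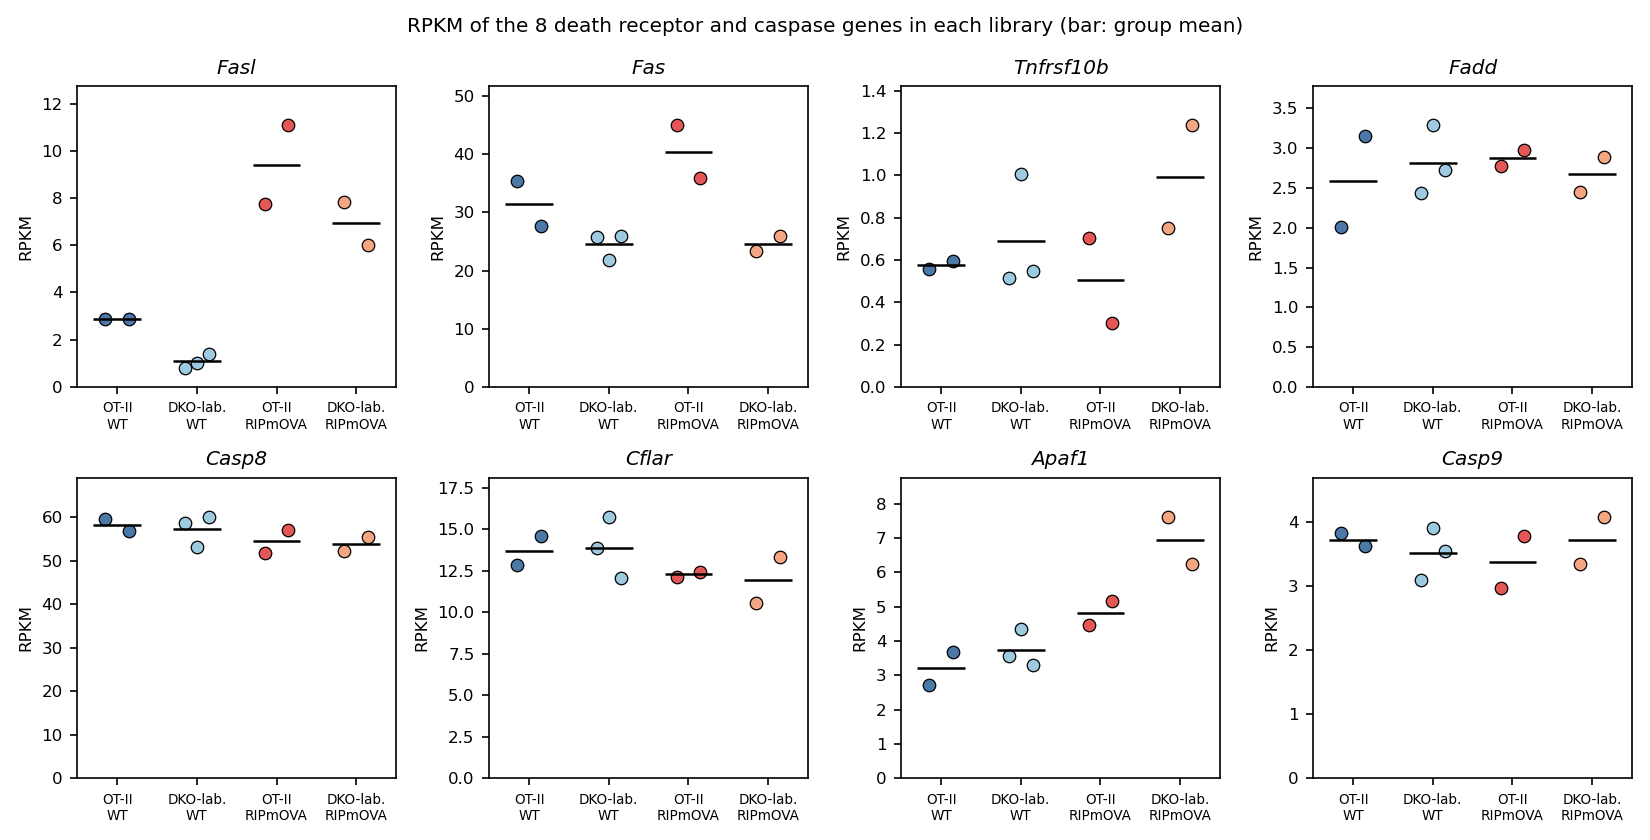
RPKM of the 8 genes on a linear axis from 0, with a point for each of the 9 libraries, a bar at the group mean, and the 4 groups of genotype and host along the horizontal axis. Fasl lies at 0.804 to 2.894 RPKM in WT hosts and at 6.03 to 11.1 RPKM in RIPmOVA hosts, while Casp8 stays at 51.9 to 60.1 RPKM in all 9 libraries.

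Fasl (Entrez 14103) lies on chr1:161780689-161788495, minus strand, of GRCm38 (mm10), and no other annotated gene overlaps it. It encodes Fas ligand, through which activated T cells engage Fas on other cells or on themselves. The promoter is shown because Fasl was the member called between hosts in both genotypes. These are the 250 bases before the RefSeq start site on the coding strand, chr1:161788496-161788745 of GRCm38.p6, and capitals mark matches to GGAAA, the core read by NFAT factors, on either strand.
Fasl promoter: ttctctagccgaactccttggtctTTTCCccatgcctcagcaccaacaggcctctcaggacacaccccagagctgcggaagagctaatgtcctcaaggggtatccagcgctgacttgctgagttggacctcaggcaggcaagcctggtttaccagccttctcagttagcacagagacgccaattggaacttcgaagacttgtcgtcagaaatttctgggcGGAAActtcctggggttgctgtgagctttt
The matches begin 226 and 30 bases before the start site. Of the 32851 RefSeq promoters of the same length used here, 55.6% held such a match, so it does not set Fasl apart. Neither the NR4A monomer site AAAGGTCA, found in 1.34% of promoters, nor the EGR motif GCGNGGGCG, found in 4.7%, was in this window.

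In OT-II samples of WT hosts Fasl stood at 2.894 and 2.885 RPKM. In the DKO-labelled samples of WT hosts it stood at 0.804, 1.02 and 1.40 RPKM. In RIPmOVA hosts it reached 7.73 and 11.1 RPKM in OT-II against 7.82 and 6.03 RPKM in DKO-labelled libraries. All 4 RIPmOVA libraries were thus above all 5 WT-host libraries, and 8.39% of all genes had no overlap between pooled hosts. The genotypes overlapped within RIPmOVA hosts and did not overlap within WT hosts, as for 20.8% of all genes in WT hosts. The RPKM values of Fasl rested on 38 to 520 reads a library and moved the gene from the 7.76th to the 64.6th percentile of the genes tested. In a bulk sample, fewer cells that express a gene and less RNA per cell cannot be told apart.

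The first question was how these genes differed between hosts with and without the self-antigen in cells of normal Nr4a genotype. With limma on log2(RPKM + 0.5), Fasl was higher in RIPmOVA hosts by 1.53 on the log2 scale in OT-II cells (SE 0.23, adjusted p = 0.0129), a scale that understates the change of low genes. It was called, meaning an adjusted p of 0.05 or less with a log2 change of at least 1. Called genes were 1.23% of all genes tested in that comparison, and 1 of the 8 members was called, with none lower. The call did not outlast leaving out OT-II replicate 1 from WT hosts (adjusted p = 0.057, log2 change 1.53) or OT-II replicate 2 from RIPmOVA hosts (adjusted p = 0.0975, log2 change 1.28), and it was also lost without the filter and in a fit to these 4 libraries alone. The same comparison in DKO-labelled cells asked whether the host difference was seen under the knockout label. There Fasl was higher by 2.24 (SE 0.21, adjusted p = 0.00077), and the call held in all 21 alternatives with an adjusted p of 0.0126 or less. Called genes were 1.68% of all genes in that comparison, and Fasl was again 1 of 8 members called.

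The knockout label went with less Fasl in WT hosts, by 1.12 on the log2 scale (SE 0.21). The libraries did not overlap there, as for 20.8% of all genes. This difference did not pass the test over all genes (adjusted p = 0.102, between 0.0774 and 0.493 over 21 alternatives). In RIPmOVA hosts the difference was -0.41 (SE 0.23, adjusted p = 0.323), with a 95% interval of -0.92 to 0.10. The host effect was 0.72 larger under the knockout label (SE 0.31), which did not pass as an interaction over all genes (adjusted p = 0.522). In the 4 chimeras with both genotypes, Fasl was lower in the DKO-labelled cells of 3 and about equal in the fourth, at 7.82 against 7.73 RPKM.

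Markers of other cell types were read beside Fasl. The 3 NK cell markers summed to at most 1.78 RPKM in any library, with Klrb1c and Eomes under 1 RPKM in all 9. The Treg markers Foxp3 and Il2ra summed to 14.2 to 16.9 RPKM in OT-II against 5.33 to 8.58 RPKM in DKO-labelled samples of RIPmOVA hosts, and to 0.959 to 4.54 RPKM in WT hosts, so this list moved with host as Fasl did. The 5 macrophage markers summed to 10.2 to 20.7 RPKM in OT-II samples of RIPmOVA hosts and to 2.72 to 9.59 RPKM in the other groups, with Adgre1 and Csf1r under 1 RPKM in all libraries. No gene of these lists was at 0 in all libraries, and their part in the Fasl result was not tested. The 4 epithelial markers summed to 7.18 to 11.01 RPKM in DKO-labelled samples of RIPmOVA hosts and to 2.55 to 6.73 RPKM in the other groups, with Krt5 and Aire under 1 RPKM in all libraries, and the 4 dendritic cell markers to 1.83 to 2.67 RPKM against 0.386 to 1.79 RPKM, with Flt3, Itgax and Siglech under 1 RPKM in all. These are also the libraries with the highest Apaf1, Tnfrsf25 and mean Casp4 levels described further on, and the part of these lists in those results was not tested.

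Fas (Entrez 14102) lies on chr19:34290666-34327772, plus strand, with the small RNA gene Gm27818 inside it. It encodes the receptor of Fas ligand, whose death domain recruits FADD. Its promoter is shown beside that of its ligand, with the same window and marks, at chr19:34290409-34290658 of GRCm38.p6. Capitals here mark an AP-1 match (TGANTCA) that begins 211 bases before the start site and an NFAT match that begins 199 bases before it.
Fas promoter: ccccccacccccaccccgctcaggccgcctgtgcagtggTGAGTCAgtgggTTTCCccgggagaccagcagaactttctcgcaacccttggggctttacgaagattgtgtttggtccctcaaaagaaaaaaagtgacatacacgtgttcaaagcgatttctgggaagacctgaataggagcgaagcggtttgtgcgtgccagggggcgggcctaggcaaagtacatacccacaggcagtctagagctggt
AP-1 matches were in 6.75% of these promoters, and of the 7 members with a RefSeq promoter Fas alone had this match. None of these 7 had a match to the NR4A or EGR motif, and Tnfrsf10b, which had no such promoter, was not searched. A match of letters is a description and not a binding site.

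Fas was the second most abundant member per length. Its OT-II libraries stood at 35.4 and 27.6 RPKM in WT hosts and at 45.0 and 35.9 RPKM in RIPmOVA hosts. The DKO-labelled libraries stood at 25.7, 21.9 and 25.9 RPKM in WT hosts and at 23.3 and 25.9 RPKM in RIPmOVA hosts. The highest DKO-labelled library, at 25.93 RPKM, was below the lowest OT-II library, at 27.64 RPKM, and 5.62% of all genes had no overlap between pooled genotypes. Fas was thus also lower in the DKO-labelled cells of all 4 chimeras that gave both, for which the share over all genes was not taken. The order of the groups was OT-II in RIPmOVA hosts, OT-II in WT hosts, then the DKO-labelled groups, whose means of 24.6 ± 1.87 (SD, n = 2) and 24.5 ± 2.30 (SD, n = 3) RPKM differed by less than their spread.

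In RIPmOVA hosts, the comparison of genotypes under self-antigen, Fas was 1.64-fold lower in DKO-labelled cells, -0.70 on the log2 scale (SE 0.15). It missed the threshold at an adjusted p of 0.0561, had 0.0376 with the chimera as a block with an estimated correlation, 0.0679 with the chimera as a fixed term and 0.260 with the sensory receptor background as a covariate, and ranged from 0.0292 to 0.260 over 21 alternatives. In WT hosts the difference was -0.35 (SE 0.14, adjusted p = 0.578). Averaged over hosts, a contrast added after the data had been seen, it was -0.52 (SE 0.10, adjusted p = 0.0327) and so passed on adjusted p but not on size. Genes that passed on adjusted p alone in that average were 3.30% of all genes, and Fas and Fasl (-0.76, SE 0.15, adjusted p = 0.0328) were the 2 of 8 members among them, both lower. Leaving out 1 library raised the adjusted p of Fas to as much as 0.122 and that of Fasl to as much as 0.125. The host effect on Fas in OT-II cells, 0.36 (SE 0.15), did not pass (adjusted p = 0.34).

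Tnfrsf10b (Entrez 21933, chr14:69767472-69784411, plus strand) encodes the death receptor for TRAIL. It was the lowest member, at 0.555 and 0.597 RPKM in OT-II against 0.513, 1.01 and 0.55 RPKM in DKO-labelled samples of WT hosts, and at 0.702 and 0.304 RPKM in OT-II against 0.749 and 1.24 RPKM in DKO-labelled samples of RIPmOVA hosts. The 2 libraries above 1 RPKM, through which it passed the filter, were among the 4 with the most sensory receptor reads. It had 47 to 138 reads in each library, or the 2.69th to the 11th percentile. No comparison passed, and the 95% intervals of the 4 pairwise log2 differences reached from -0.96 to 1.41, so that a 2-fold difference lay inside the interval of some comparisons.

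No gene of the complex beneath the receptor was called in any comparison. Casp8 (Entrez 12370), the initiator caspase of the extrinsic arm, was the highest member, at the 94.2nd to the 95.2nd percentile. It stood at 59.5 and 56.7 RPKM in OT-II against 58.6, 53.1 and 60.1 RPKM in DKO-labelled samples of WT hosts, and at 51.9 and 57.1 RPKM against 52.2 and 55.4 RPKM in RIPmOVA hosts. The groups overlapped in all 4 pairwise comparisons, and the 95% intervals of the log2 differences lay between -0.31 and 0.20. Casp8 was thus the member whose level was known best, with a within-group SD of 0.081 on the log2 scale.

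Cflar (Entrez 12633), its inhibitor, ranged from 10.6 to 15.8 RPKM. The OT-II samples of RIPmOVA hosts, at 12.1 and 12.5 RPKM, were below those from WT hosts, at 12.9 and 14.6 RPKM, where 41.6% of all genes had no overlap. The DKO-labelled libraries overlapped between hosts, at 10.6 and 13.3 against 13.9, 15.8 and 12.03 RPKM. No comparison passed, with 95% intervals of the log2 differences between -0.52 and 0.32. Cflar and Casp8 are neighbours on chromosome 1, at 58711508 to 58758884 and 58795374 to 58847503 on the plus strand, 36.49 kb apart. Per length, Casp8 was 3.37 to 4.99 times as abundant as Cflar in the 9 libraries. The log2 ratio of Cflar to Casp8 in a library differed by -0.095 between hosts (exact permutation test within genotype, 60 arrangements, two-sided p = 0.517, the smallest possible being 0.0167). Between genotypes the same exact permutation test gave p = 1. The host test moved libraries singly, though libraries of 1 chimera share a host. Its smallest possible p is therefore lower than whole chimeras would allow, and a host test on whole chimeras was not run. The balance of inhibitor to caspase transcript, as measured here, was not seen to differ with host or genotype.

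Fadd (Entrez 14082, chr7:144577318-144582463, minus strand), the adaptor between receptor and caspase-8, was low, at 2.01 to 3.29 RPKM, and its groups overlapped in each comparison. The antisense gene Faddos overlaps it, and without a stated strand setting reads of the pair cannot be told apart. The 95% intervals of its log2 differences lay between -0.57 and 0.63.

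Apaf1 (Entrez 11783, chr10:90989311-91082770, minus strand) encodes the scaffold on which caspase-9 is activated. A small nuclear RNA gene, Gm25390, lies inside it. It stood at 2.71 and 3.69 RPKM in OT-II against 3.58, 4.35 and 3.29 RPKM in DKO-labelled samples of WT hosts. In RIPmOVA hosts it stood at 4.46 and 5.16 RPKM in OT-II against 7.63 and 6.25 RPKM in DKO-labelled libraries. The groups thus rank with the WT hosts lowest and overlapping, OT-II from RIPmOVA hosts next and DKO-labelled from RIPmOVA hosts highest, and neither RIPmOVA group overlapped another group. Over all genes, 41.6% had no overlap between hosts in OT-II cells and 40.0% had none in DKO-labelled cells. Between genotypes in RIPmOVA hosts 59.0% had none, so this ranking is a description.

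In DKO-labelled cells Apaf1 was 1.86-fold higher in RIPmOVA hosts, 0.81 on the log2 scale (SE 0.17, adjusted p = 0.033). It passed on adjusted p alone, as did 3.35% of all genes, and made 2 of 8 members with Fasl. Without DKO-labelled replicate 1 from RIPmOVA hosts it was 0.68 with an adjusted p of 0.284, and 10 of 21 alternatives gave 0.05 or less. In OT-II cells it was 0.53 higher (SE 0.18, adjusted p = 0.218). Averaged over genotypes, which was added after the data had been seen, it was 0.67 higher (SE 0.12, adjusted p = 0.0137), where 6.75% of all genes passed on adjusted p alone. DKO-labelled cells had more Apaf1 than OT-II cells in RIPmOVA hosts by 0.48 (SE 0.18), which did not pass (adjusted p = 0.181). In those hosts both DKO-labelled libraries also had more sensory receptor reads, and with that background as a covariate the adjusted p of the host effect in DKO-labelled cells was 0.177.

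Casp9 (Entrez 12371, chr4:141793612-141815976, plus strand), the caspase that APAF1 activates, did not follow Apaf1. It was at 2.96 to 4.08 RPKM in all 9 libraries, its groups overlapped in each comparison, and the 95% intervals of its log2 differences lay between -0.51 and 0.50. The genes Cela2a and Ctrc lie on the other strand within its span, and without a stated strand setting reads that overlap both strands' genes cannot be told apart.

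**Figure D2:**
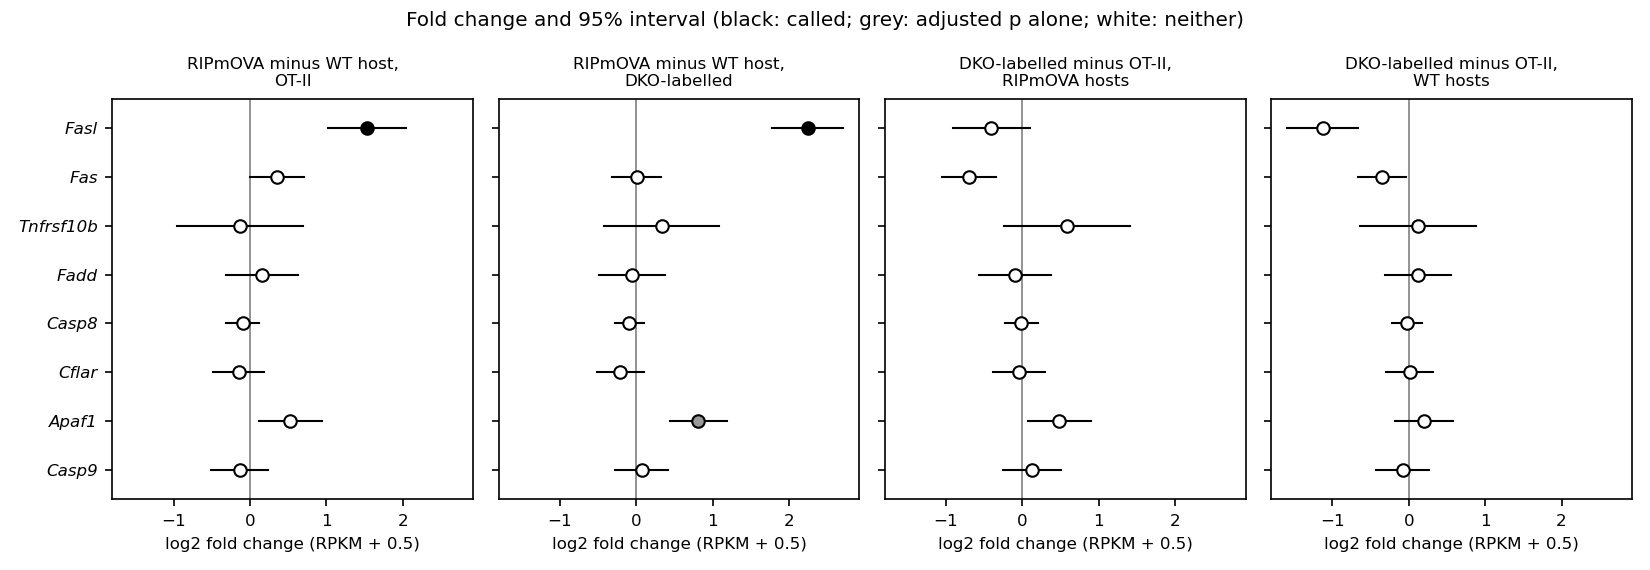
Log2 fold change of each of the 8 genes in the 4 pairwise comparisons, on log2(RPKM + 0.5), with bars for the 95% interval from limma. Black points passed both thresholds, the grey point passed on adjusted p alone and white points passed neither. Fasl is black in both host comparisons, at 1.53 and 2.24, and Apaf1 is grey in DKO-labelled cells, at 0.81.

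Over the 8 members, the median log2 difference between hosts was 0.03 (OT-II) and 0.04 (DKO-labelled), against -0.02 and 0.03 over all genes tested. For the knockout label it was -0.03 in RIPmOVA hosts and -0.01 in WT hosts, against 0.04 and 0.01 over all genes. The libraries of both groups did not overlap for 4 members in the host comparison of OT-II cells (Fas, Fasl and Apaf1 higher, Cflar lower), where 41.6% of all genes did not overlap, and for 2 members in that of DKO-labelled cells (Fasl and Apaf1 higher), where 40.0% did not. They did not overlap for 3 members between genotypes in RIPmOVA hosts (Fas lower, Apaf1 and Tnfrsf10b higher), where 59.0% of all genes did not, and for 2 members in WT hosts (Fas and Fasl lower), where 20.8% did not. These counts lie near or below the background and are no result about the members. With both genotypes or both hosts pooled the background was lower. Fasl and Apaf1 were the 2 members with no overlap between hosts, against 8.39% of all genes, and Fas was the 1 member with no overlap between genotypes, against 5.62%.

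No member was called between genotypes by limma. In RIPmOVA hosts, where 1.07% of all genes were called, 0 of 8 members were called and 2 had an unadjusted p under 0.05, namely Fas and Apaf1. In WT hosts, where 0.0605% of all genes were called, 0 of 8 were called and 2 had such a p, namely Fas and Fasl. For the interaction, where 0.0173% of all genes were called, 0 of 8 were called and Fasl alone had such a p. limma voom on recovered reads also called 0 members in each of these 3 comparisons. In the averages over genotypes and over hosts, called genes were 1.87% and 0.648% of all genes, and 1 member (Fasl, 1.88, SE 0.15, adjusted p = 0.00022) and 0 members were called. Another scaling, by the median of ratios, moved the median of all genes by -0.21 in the genotype comparison in RIPmOVA hosts and by -0.16 in the host comparison of DKO-labelled cells. Under that scaling Fas was at -0.93 between genotypes in RIPmOVA hosts, with an adjusted p of 0.0292.

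A wider list of 40 other genes of the pathway was read from the same fit, and 37 of them passed the filter. In OT-II cells, 2 of 37 were called higher and 0 lower between hosts, where 1.23% of all genes were called. In DKO-labelled cells 4 of 37 were called higher and 0 lower, where 1.68% of all genes were called, with 1 more higher (Birc3) and 1 lower (Tnfrsf1a) on adjusted p alone, as for 3.35% of all genes. The median log2 difference of the list was 0.02 in both, against -0.02 (OT-II) and 0.03 (DKO-labelled) over all genes. Called genes were a ligand, a receptor, a feedback regulator and an inflammatory caspase. No gene of the adaptors and kinases (7 tested), the apoptosome partners (3 tested) or the caspase substrates (5 tested) was called between hosts, and at these shares over all genes nothing is read from the absence of calls in sets so small. Between genotypes limma called 0 of 37 in RIPmOVA hosts, where 6 had an unadjusted p under 0.05 and voom called 1 (Tnfrsf25), and 0 of 37 in WT hosts, where 3 had such a p and voom called 0. The interaction also gave 0 of 37, with 3 at such a p and 0 by voom.

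**Figure D3:**
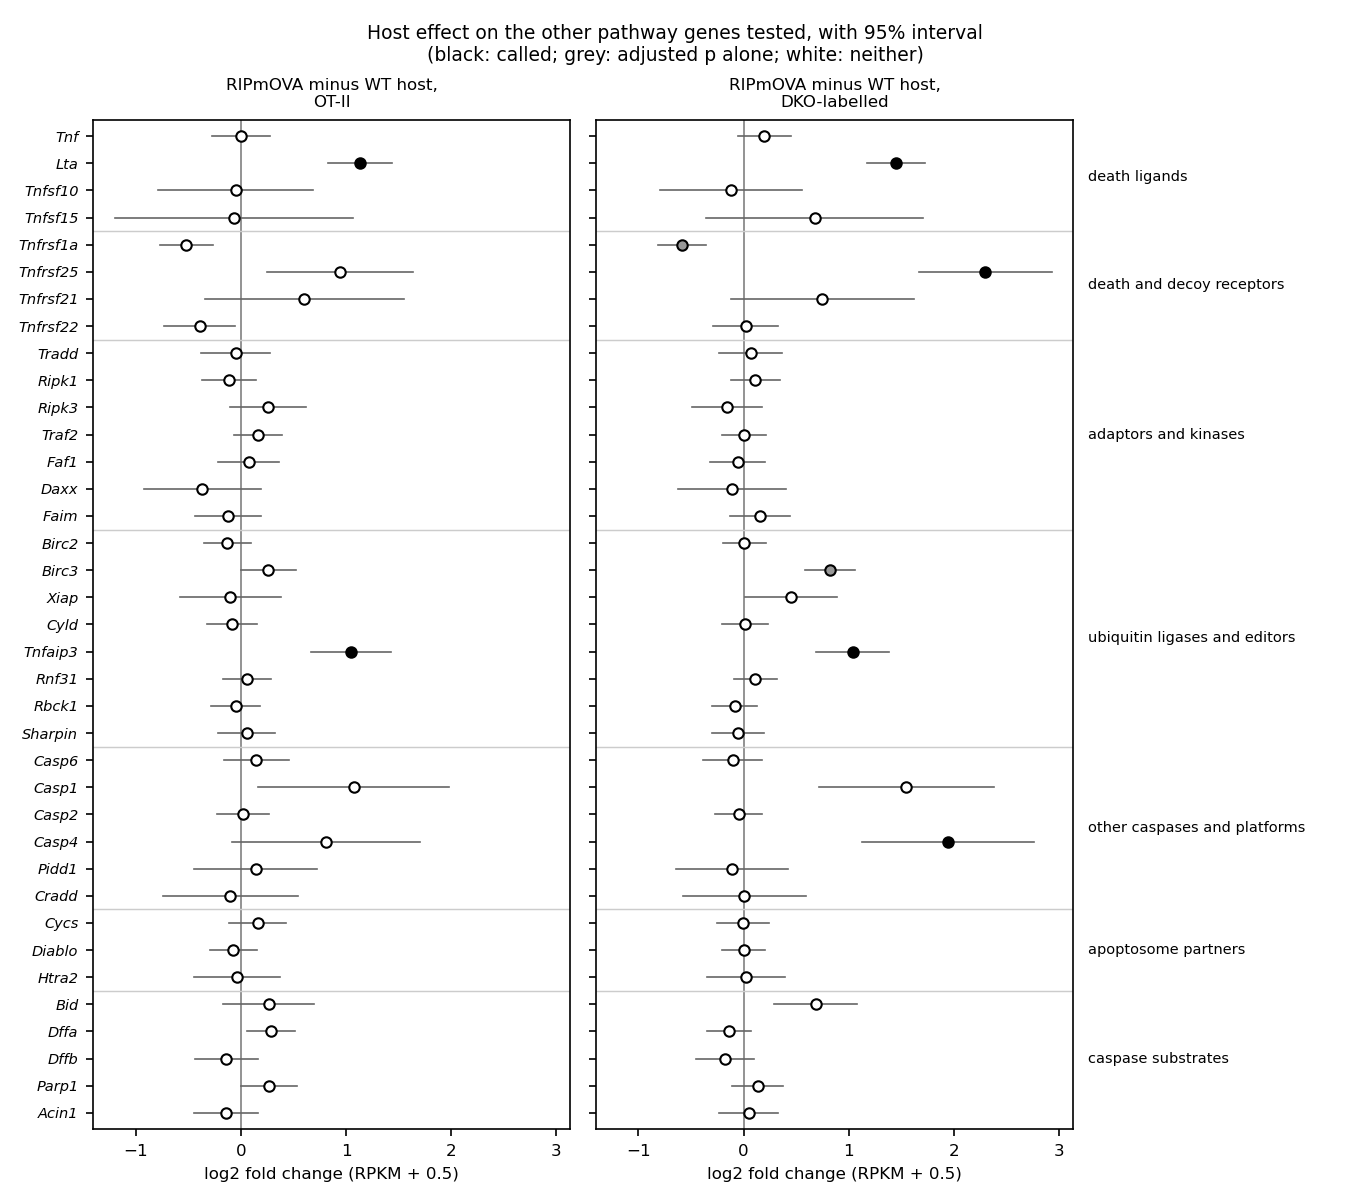
Log2 fold change between RIPmOVA and WT hosts of the 37 other pathway genes tested, with the 95% interval from limma, for OT-II cells on the left and DKO-labelled cells on the right, grouped by role. Lta and Tnfaip3 are black (called) on both sides, while Tnfrsf25 and Casp4 are black on the right side alone, where no test of the difference between sides passed.

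Lta, which encodes lymphotoxin alpha, was the ligand that rose beside Fasl. It stood at 20.5 and 18.9 RPKM in OT-II against 15.9, 19.7 and 21.3 RPKM in DKO-labelled samples of WT hosts, and at 42.0 and 45.5 RPKM against 54.7 and 49.9 RPKM in RIPmOVA hosts. It was higher by 1.13 in OT-II (SE 0.13, adjusted p = 0.00382) and by 1.45 in DKO-labelled cells (SE 0.12, adjusted p = 0.00053). Tnfaip3, encoding the ubiquitin editor A20 that restrains TNF receptor signalling, was higher by 1.05 in OT-II (SE 0.17, adjusted p = 0.0193) and by 1.04 in DKO-labelled cells (SE 0.15, adjusted p = 0.00829). Its libraries were at 6.66 to 9.03 RPKM in WT hosts and at 14.95 to 20.2 RPKM in RIPmOVA hosts. Its calls were close to the limit on size, and that in OT-II cells was lost in 7 of 21 alternatives, among them leaving out OT-II replicate 1 from WT hosts (adjusted p = 0.0966) or replicate 1 (adjusted p = 0.182) or 2 (adjusted p = 0.0546) from RIPmOVA hosts. In DKO-labelled cells the call was lost in 5 of 21, among them leaving out replicate 1 from WT hosts (0.92, adjusted p = 0.0254) or replicate 1 from RIPmOVA hosts (0.88, adjusted p = 0.0834). The Lta call in OT-II cells was lost without OT-II replicate 2 from RIPmOVA hosts alone (adjusted p = 0.0515), and that in DKO-labelled cells held in all 21.

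Tnfrsf25, the death receptor DR3 that in T cells also acts in costimulation, was at 7.24 and 4.35 RPKM in OT-II against 3.32, 6.53 and 5.14 RPKM in DKO-labelled samples of WT hosts. In RIPmOVA hosts it was at 12.1 and 10.5 RPKM in OT-II against 30.9 and 21.3 RPKM in DKO-labelled libraries. The host effect was 2.30 in DKO-labelled cells (SE 0.28, adjusted p = 0.00317) and 0.94 in OT-II cells (SE 0.31, adjusted p = 0.191). Between genotypes in RIPmOVA hosts Tnfrsf25 was 1.149 higher under the knockout label (SE 0.31) and was not called (adjusted p = 0.0902), nor with the chimera as a block. Its libraries did not overlap there, as for 59.0% of all genes. It was called in a fit to the compared libraries alone (adjusted p = 0.0479) and by voom (adjusted p = 0.0415). The adjusted p ranged from 0.0415 to 0.717 in 21 alternatives. Birc3, encoding the inhibitor cIAP2, was at 16.1 to 23.4 RPKM in WT hosts and 24.0 to 30.7 RPKM in RIPmOVA hosts, 0.82 higher in DKO-labelled cells (SE 0.10, adjusted p = 0.00398) and 0.26 higher in OT-II cells, which did not pass (SE 0.11, adjusted p = 0.342).

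Tnfrsf1a, the main receptor for TNF, went the other way. It stood at 29.3 and 33.6 RPKM in OT-II against 29.5, 32.1 and 31.3 RPKM in DKO-labelled samples of WT hosts. In RIPmOVA hosts it stood at 22.3 and 21.3 RPKM against 18.9 and 22.1 RPKM. All 4 RIPmOVA libraries were thus below all 5 others, and 8.39% of all genes had no overlap between pooled hosts. In DKO-labelled cells the host effect was -0.59 (SE 0.10, adjusted p = 0.0161), which passed on adjusted p alone and in 17 of 21 alternatives, not without DKO-labelled replicate 1 from RIPmOVA hosts (adjusted p = 0.147) or replicate 3 from WT hosts (adjusted p = 0.0673). In OT-II cells it was -0.52 (SE 0.11, adjusted p = 0.0536). Tnfrsf22, a decoy receptor for TRAIL in mice, was at 3.63 and 3.76 RPKM in DKO-labelled and 2.20 and 1.79 RPKM in OT-II samples of RIPmOVA hosts, 0.75 higher under the knockout label (SE 0.15, adjusted p = 0.0389). Genes passing on adjusted p alone were 2.21% of all genes there, and Tnfrsf22 was the 1 of 37. It passed in 7 of 20 alternatives and had an adjusted p of 0.0263 with the chimera as a block with an estimated correlation and 0.0954 as a fixed term. Leaving out any of the 4 libraries compared gave 0.106 to 0.202.

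Among the other caspases, Casp4, an inflammatory caspase that senses bacterial lipopolysaccharide in the cytosol, was low in WT hosts, at 1.13 and 0.331 RPKM in OT-II against 0.542, 0.583 and 0.33 RPKM in DKO-labelled cells. In RIPmOVA hosts its values were 1.31 and 1.80 RPKM in OT-II against 4.61 and 2.27 RPKM in DKO-labelled libraries. All 4 were thus above all 5 others, where 8.39% of all genes had no overlap. The host effect was 1.94 in DKO-labelled cells (SE 0.36, adjusted p = 0.0225) and 0.81 in OT-II cells (SE 0.40, adjusted p = 0.411). The call was lost in 6 of 20 alternatives, among them leaving out DKO-labelled replicate 1 from RIPmOVA hosts (1.501, adjusted p = 0.239) or replicate 1 (adjusted p = 0.0694) or 3 (adjusted p = 0.092) from WT hosts, and with the sensory receptor background as a covariate (1.72, adjusted p = 0.170). Casp1, the caspase that processes interleukin-1 beta, was singled out after its values were seen, since it was called in the host effect averaged over genotypes (1.31, SE 0.27, adjusted p = 0.0223) and in neither genotype alone. Called genes were 1.87% of all genes in that average, and alternatives for Casp1 are not reported here. Casp1 was at 0.327 to 1.00 RPKM, on 45 to 93 reads, in the 5 libraries of WT hosts and at 1.34 to 3.26 RPKM in the 4 of RIPmOVA hosts.

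Casp6, an effector caspase, was much more abundant per length, at 37.3 and 33.5 RPKM in OT-II against 27.2, 25.3 and 34.3 RPKM in DKO-labelled samples of WT hosts, and 38.5 and 39.9 RPKM against 26.1 and 27.2 RPKM in RIPmOVA hosts. It was not called between hosts. In RIPmOVA hosts it was lower under the knockout label by 0.55 on the log2 scale (SE 0.14), which did not pass (adjusted p = 0.0754). Its libraries did not overlap there, as for 59.0% of all genes, so nothing is read from that. With the chimera as a block the adjusted p of this difference was 0.0536 with an estimated correlation and 0.0407 as a fixed term. Of 21 alternatives 4 gave 0.05 or less, and the highest gave 0.578. Casp6 was lower in the DKO-labelled cells of all 4 chimeras that gave both, a description for which the share over all genes was not taken. Averaged over hosts, a contrast added after the data had been seen, Casp6 was at -0.42 (SE 0.09, adjusted p = 0.0449). That passed on adjusted p alone, as did 3.30% of all genes, and in 7 of 20 alternatives. Both chimera blocks were among these, and the highest adjusted p of the alternatives was 0.191.

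**Figure D4:**
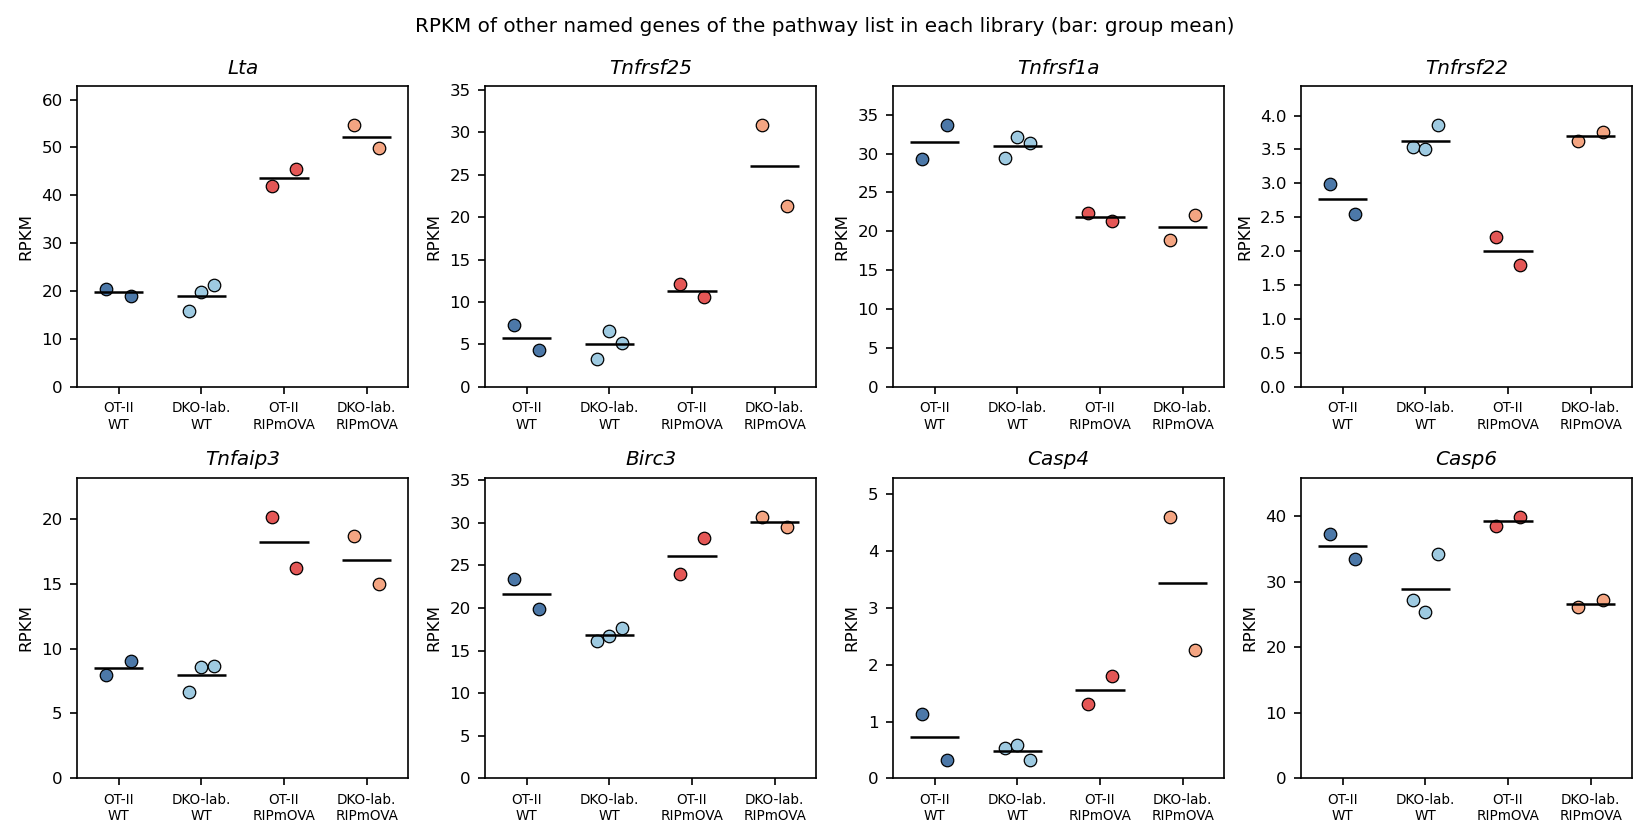
RPKM of 8 other named pathway genes, drawn as for the members with a point per library and a bar at the group mean. Lta reaches 42.0 to 54.7 RPKM in RIPmOVA hosts against 15.9 to 21.3 RPKM in WT hosts, Tnfrsf1a is lower in all 4 RIPmOVA libraries than in the others, and Casp6 is lower in both DKO-labelled libraries from RIPmOVA hosts than in the OT-II libraries.

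Among all genes tested, those whose log2 level over the 9 libraries was most like that of Fasl were Polm (Pearson r = 0.988, n = 9 libraries), a DNA polymerase of the repair of double-strand breaks, Tnfrsf4 (r = 0.974), the costimulatory receptor OX40, and Mxd1 (r = 0.971), a partner of MAX. The 9 libraries share the host contrast, so such values are a description. The group means of Tnfrsf4 were 21.5 and 9.58 RPKM in OT-II and DKO-labelled cells from WT hosts and 118.3 and 112.2 RPKM in those from RIPmOVA hosts, the same order as for Fasl. Mxd1 was at 11.2 and 8.70 RPKM in WT hosts and 23.9 and 21.5 RPKM in RIPmOVA hosts. Polm changed far less than Fasl in size, at 3.63 and 3.12 RPKM in WT hosts and 4.34 and 4.14 RPKM in RIPmOVA hosts.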

How the data were processed

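According to the labels and the methods of the study, the authors sorted thymocytes, made SMART-seq v4 and Nextera XT libraries, aligned paired reads to mm10 with STAR and GENCODE vM17, removed duplicates marked with Picard, summed reads over the exons of each Entrez gene with GenomicRanges in R and deposited RPKM values for each library, with the exon length used. The strand setting and the STAR version were not given in the sources used here, and counts were not analysed here, so DESeq2, which the authors used, was not run.

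From the deposited RPKM values, log2(RPKM + 0.5) was modelled by 4 group means in limma 3.58.1 (R 4.3.3) over all 9 libraries, with an intensity trend and Benjamini-Hochberg adjustment over 11569 genes. Depth was recovered from the steps of low RPKM values, of which at least 99.96% were whole numbers of reads, and read numbers cover counting error only. The script was tested on simulated data. The labels give the chimera of each library, which pairs the genotypes by animal, and deviations of paired libraries correlated at -0.239 to 0.0059. With 2 libraries a group, exact permutation could not go below p = 0.333, so single genes rest on the spread shared across genes.

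Other named genes were the Nr4a targets, the effector caspase Casp6, the pathway genes with an adjusted p of 0.05 or less in any comparison (at most 6 in each), and the 3 genes most like each called member. Some results of the wider list are not reported here. The members, lists and rules were chosen with earlier results of these data known. Alternatives were other pseudocounts, filters, scalings and variance models, voom on recovered reads, a replicate block, a background covariate and leaving out each library. Gene positions come from GENCODE and promoters from RefSeq, which held 7 of the 8 members.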

Additional observations from a re-analysis of the deposited data

How the results depend on the processing

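Of the counts of genes called, those for members and pathway genes kept their value within 1.5-fold except as follows. In the host comparison of OT-II cells, members called went from 1 to 0 without the filter and in a fit to the compared libraries alone, and pathway genes called went from 2 to 1 in those fits, with the replicate number across hosts as a replicate block and with the background covariate. Leaving out 1 library gave 0 to 1 members and 0 to 2 pathway genes. In the host comparison of DKO-labelled cells, adjusted p alone gave 2 members, the background covariate gave 2 pathway genes in place of 4, and leaving out 1 library gave 2 to 5, the lowest without DKO-labelled replicate 1 from either host. Between genotypes in RIPmOVA hosts, pathway genes called went from 0 to 1 in a fit to the compared libraries alone, with voom and on adjusted p alone. For the averages, adjusted p alone gave 2 members between hosts, and 2 members and 2 pathway genes between genotypes. Pathway genes called in the average between hosts went from 5 to 3 without the filter, with the filter at 5 RPKM and with the replicate number as a replicate block, and leaving out 1 library gave 2 to 5.

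The ratio of Cflar to Casp8 between genotypes, at -3.7e-05, turned to 0.000884 with 0.5 RPKM added. With the replicate block within chimeras it was 0.0672 (exact permutation p = 0.625). The smallest p possible in that test was 0.125, so it could not have passed. With 1 library left out the ratio difference lay between -0.0742 and 0.0672. In single genes, Tnfrsf10b turned to -0.246 (genotypes, RIPmOVA hosts) and -0.0826 (average) under quantile normalization, and Birc3 (RIPmOVA hosts) and Lta (average) to -0.0236 and -0.0178 under median-of-ratios rescaling. The cause was not tested. Of 45 estimates below their standard error, 40 changed sign in some alternative and 0 changed call. The chimera as a replicate block, with an estimated correlation of 0.104, changed no call of the members. The fit to the compared libraries could not be made for the interaction, and chimera as a fixed term could not be made for host effects.

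With 2 or 3 libraries a group, changes under about 2-fold rest on few values, and Fasl in WT hosts and Tnfrsf10b rest on 38 to 138 reads a library.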
